A study of Mus musculus with 6 samples.

Results

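Ribosomal protein pseudogenes were set beside the genes they were copied from, to ask whether any other pseudogene and parent exchange their levels between the groups of the study as Rpl17-ps5 and Rpl17 do. The members are the genes whose symbol starts with Rpl or Rps and ends in -ps and a number. There were 322 of them among 56496 genes, 199 named for proteins of the large ribosomal subunit and 123 for proteins of the small one. The parent is the gene named before the -ps. The 322 members name 65 parents, and the parent was in the table for 321 members. The group was chosen by the measured TPM of Rpl17-ps5 and Rpl17, so the values of that pair are given as a description, with no test. RNA-seq had been done on bone marrow cells of female BALB/c mice after surgery that took out a 4T1 tumour, grown from mammary carcinoma cells of the mouse. The 3 Onway libraries (Onway 1, 2 and 3, labelled day 14) are from mice that received Onway for 2 weeks by gavage. The 3 Control libraries (Control 4, 5 and 6, labelled day 0) came from mice that did not get it. Both groups thus share the tumour and its resection, the composition of Onway is unknown here, and treatment cannot be told apart from labelled day. The labels do not state that each library is 1 mouse, so a p-value reflects only how these libraries spread, which may be technical.

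A processed pseudogene arises when the mRNA of a gene is copied back into DNA and inserted elsewhere in the genome, so it lacks introns and usually lacks the promoter of its parent. Ribosomal protein genes, whose mRNAs are among the most abundant of any cell, have left more such copies in mammalian genomes than other gene families. Each copy collects its own base changes, and a young copy can still be nearly identical to the coding sequence of its parent. A read from a stretch without a difference can then come from either gene, and how it is shared out depends on the quantification. Here the quantifier is not given in the sources used, and neither is whether the libraries keep the strand, so levels of single copies are uncertain throughout. TPM, the unit of the deposited values, is abundance per transcript length scaled to the same total in every library. It keeps no read depth, so no counting interval can be given.

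The sequences below show how few bases separate the copies on which the results turn. They were read from GENCODE M21 transcripts (GRCm38) and are written 5′ to 3′. Capitals mark the bases that differ between parent and pseudogene, and positions are counted from the A of the parent's start codon. Rpl17-ps5, the member that prompted the question, differs from the Rpl17 coding sequence at 2 of 555 bases, G183A and T294C, and the stretches around them (chr5:22612988-22613012 and chr5:22612877-22612901, minus strand) are shown first.
Rpl17-ps5, bases 171 to 195: tgtgccattccgAcggtataatggt
Rpl17-ps5, bases 282 to 306: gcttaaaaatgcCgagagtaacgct
Rpsa and 3 of its pseudogenes follow over bases 190 to 239, because those 3 shared both changes here, T210C and C219T, and were high and low in the same libraries. The stretches lie at chr3:150073304-150073353 (minus strand) for Rpsa-ps10, chr2:28477354-28477403 (plus strand) for Rpsa-ps9 and chr17:82410581-82410630 (minus strand) for Rpsa-ps7.
Rpsa: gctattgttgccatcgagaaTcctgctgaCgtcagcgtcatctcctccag
Rpsa-ps10: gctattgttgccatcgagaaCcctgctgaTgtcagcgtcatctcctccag
Rpsa-ps9: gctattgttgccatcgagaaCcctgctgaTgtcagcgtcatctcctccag
Rpsa-ps7: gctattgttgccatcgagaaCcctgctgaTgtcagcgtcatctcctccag
Rpl34-ps1 (bases 112 to 152 at chr6:71124721-71124761, plus strand) had 2 changes in all, T132C and C318G, and the first is shown.
Rpl34: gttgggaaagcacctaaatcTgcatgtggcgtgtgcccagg
Rpl34-ps1: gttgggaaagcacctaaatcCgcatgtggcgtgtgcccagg
Rps19-ps6 (bases 351 to 408 at chr12:110898464-110898521, plus strand) had 5 changes, of which G369A, G372A and C390T fall in this stretch.
Rps19: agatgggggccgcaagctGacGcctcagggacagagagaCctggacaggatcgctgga
Rps19-ps6: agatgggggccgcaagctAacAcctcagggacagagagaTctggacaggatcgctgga
Rpl35a-ps2 (bases 136 to 176 at chr1:181242145-181242185, minus strand) stands for 5 genes with 1 identical transcript of 333 bases, which differ from Rpl35a by G156A only.
Rpl35a: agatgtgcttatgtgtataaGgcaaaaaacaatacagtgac
Rpl35a-ps2: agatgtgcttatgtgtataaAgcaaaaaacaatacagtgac
Rps18-ps6 (bases 317 to 357 at chr13:97760232-97760272, minus strand), the most abundant member, shared A337C with Rps18-ps3 and Rps18-ps5.
Rps18: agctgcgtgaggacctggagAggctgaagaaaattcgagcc
Rps18-ps6: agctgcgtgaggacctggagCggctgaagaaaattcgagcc

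Most members had little or no signal. Of the 322, 168 were listed at 0 in all 6 libraries, 107 were above 0 with a mean under 1 TPM, and 47 had a mean of at least 1 TPM (26 Rpl and 21 Rps, with 33 parents). Among the 47, 33 had a mean of at least 10 TPM and 26 of at least 100 TPM. The filter takes the mean over both groups, so a member that was high in 1 group only could pass it, as Rpl17-ps5 did, and counts over the 47 are descriptions. The member just inside was Rps15a-ps7 at a mean of 1.03 TPM, and the one just outside was Rps12-ps9 at 0.857 TPM. In all, the members held 1.29 to 1.73% of the TPM of a library, beside 7.23 to 9.33% for the cytosolic ribosomal protein genes.

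The libraries differed in other ways too. Haemoglobin genes took 9.38 to 33.9% of TPM. The 9 marrow blood cell markers summed to 223243 to 242575 TPM in Control and 202362 to 268119 TPM in Onway, and none of the 9 passed the test. All 5 skeletal muscle markers were lower in Onway by that test, at a summed 453 to 2892 TPM in Control against 2 to 6.79 TPM in Onway. So were 4 of 5 bone markers (sums of 397 to 819 against 9.19 to 25.6 TPM), 5 of 5 megakaryocyte markers (1795 to 2025 against 85.9 to 137 TPM) and 4 of 4 endothelial markers (30.2 to 36.1 against 6.26 to 7.06 TPM). The part of these cells in the values of the members was not tested, and in bulk RNA fewer cells of a type and less RNA per cell cannot be told apart.

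Rpl17-ps5 was near 0 in the Control libraries and abundant in the Onway libraries, while Rpl17 was lower in Onway. Rpl17 encodes a large-subunit protein near the exit tunnel of the ribosome. Rpl17-ps5, annotated as a processed pseudogene at chromosome 5, 22612628 to 22613182, lies in an intron of the lincRNA gene 6030443J06Rik on the opposite strand. Its TPM was 0.8, 2.06 and 0 in Control 4, 5 and 6, and 267, 251 and 292 in Onway 1, 2 and 3. The TPM of Rpl17 was 1010.4, 1176 and 1013 in Control against 729, 849.7 and 815 in Onway, in the same order of libraries. For neither copy do the groups overlap, and the directions are opposite. The sum of both copies was 1011, 1178 and 1013 TPM in Control and 995, 1100.3 and 1107 TPM in Onway, and here the groups overlap. Its highest library was 1.18 times its lowest. As a share of the pair, Rpl17-ps5 made up 0.0847% ± 0.0876 in Control and 25.3% ± 2.21 in Onway (mean and SD, n = 3 each), a difference of 25.2 percentage points. With Ensembl transcripts only, leaving out newly assembled ones, the difference was 12.7 points. A further gene, Gm46209, holds 74.3% of the 31-base words of the Rpl17 coding sequence, and it was at 0.53, 0.34 and 0.22 TPM in Control and 3.26, 7.44 and 5.41 TPM in Onway. The 10 other pseudogenes named for Rpl17 did not exceed 2.12 TPM in any library, and 6 of them were listed at 0 throughout.

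**Figure D1:**
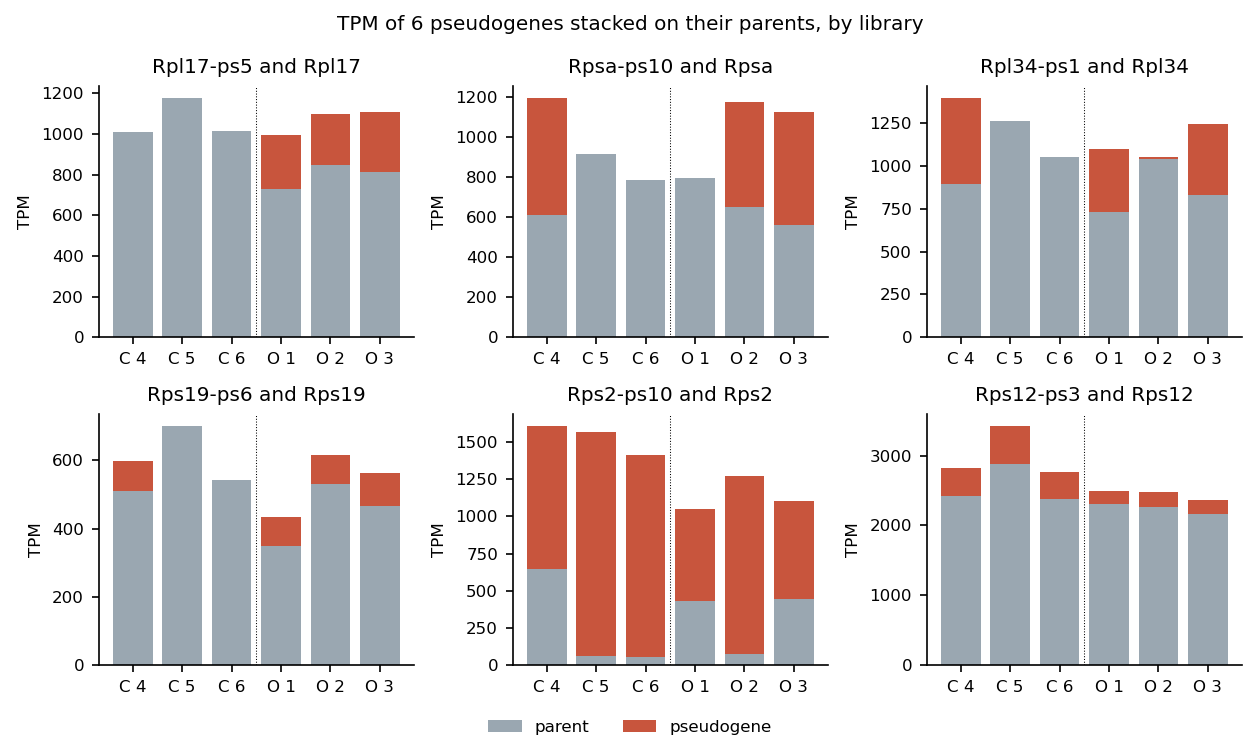
Stacked bars give the TPM of 6 pseudogenes (red) on top of their parents (grey) in each library, Control 4 to 6 (C) left of the dotted line and Onway 1 to 3 (O) right of it, on a linear axis from 0. Rpl17-ps5 exceeds 2.06 TPM in the 3 Onway libraries only, while Rpsa-ps10, Rpl34-ps1 and Rps19-ps6 are also high in Control 4, and Rps2-ps10 is high where Rps2 is low.

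A further value per group went against this split. The authors' deposited table gives a mean for each group, and no such mean departs from a mean of 4 values, so a further library per group went into it that is not analysed here as a library. What 4 times the mean in the authors' deposited table leaves beyond the 3 libraries came to 263 TPM of Rpl17-ps5 in Control and 13.6 TPM in Onway. For Rpl17, the authors' deposited table leaves 778 TPM in Control and 1020.3 TPM in Onway. The further Control value is thus at the level of the 3 Onway libraries, and the further Onway value is closer to that of the 3 Control libraries. With these values the groups overlap for both copies, and the sums that remain, 1040.2 and 1033.9 TPM, lie within the range of the 6 libraries. For Gm46209 the authors' deposited table leaves 2.67 TPM in Control and 0.4 TPM in Onway, so its groups overlap as well. Whether the group labels of the further libraries are right was not tested. For other members the authors' deposited table leaves further values in both directions, given here as Control against Onway. Of the members lower in Onway with no overlap, Rps12-ps3 kept that direction at 383 against 238 TPM. So did Rpl27-ps3 (230 against 194 TPM) and Rpl3-ps1 (635 against 540 TPM). It was not kept by Rps18-ps6 (1679 against 1693 TPM), Rpl31-ps8 (1250 against 1308 TPM) and Rpl7a-ps11 (4.78 against 5.79 TPM). For Rps19-ps6, higher on average in Onway, the authors' deposited table leaves 0 against 92.5 TPM.

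No other pair exchanged its levels between the groups in this way. A pair was counted as switching where neither copy overlapped between the groups and their directions were opposite. Rpl17-ps5 was the only such case among the 321 pairs (47 of them with a pseudogene averaging 1 TPM or more). There was none among 459 pairs of pseudogenes of non-ribosomal genes (54 of them averaging 1 TPM or more). A member listed at 0 in all 6 libraries, as 168 were, cannot meet the rule. Of the 47 members, 6 had TPM with no overlap and lower in Onway, or 12.8%, beside 11.5% of all 14192 tested genes. Only Rpl17-ps5 was higher with no overlap, or 2.13%, beside 6.95% of tested genes. Among the 33 parents, 11 were lower with no overlap (33.3%) and 0 higher. The first share of the members is near that of all genes, and the second is below it.

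The share of the pair held by the pseudogene separated the groups for 6 of the 47 members (12.8%), beside 13.0% (7 of 54) of the pairs of other genes. The count was 12 of the 47 without Control 4, without Onway 1 or without Onway 2, 9 without Onway 3, 8 without Control 5, 7 without Control 6, and 15 without both Control 4 and Onway 3. It was higher in Onway for Rpl17-ps5 and Rps18-ps6, and lower for Rps12-ps3, Rpl27-ps3, Rpl3-ps1 and Rpl7a-ps11. Among these 6, the largest difference after that of Rpl17-ps5 was -6.46 percentage points, for Rps12-ps3. Rps12-ps3 went from 14.6% ± 1.12 to 8.18% ± 0.545, and Rpl27-ps3 from 28.2% ± 1.04 to 23.7% ± 3.70. Rpl3-ps1 went from 68.7% ± 0.889 to 67.1% ± 0.720, and Rps18-ps6 from 96.1% ± 0.324 to 97.1% ± 0.342. Rpl7a-ps11, a minor copy of a large-subunit gene, held 0.665% ± 0.0617 and 0.306% ± 0.142. For each of these 5, the exact permutation test (two-sided) gave p = 0.1, the smallest it allows with 3 libraries against 3. Groups without overlap always give that value, so it adds nothing to the selection of these 5. Summed over all 321 members, the pseudogenes held 19.6% ± 0.840 of the TPM of members and parents in Control and 19.6% ± 0.910 in Onway (n = 3 each). These sums include Rpl17-ps5 and Rpl17, so no test is given for them. Without Rpl17-ps5 and Rpl17 the difference was -0.379 percentage points (exact permutation p = 0.6).

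**Figure D2:**
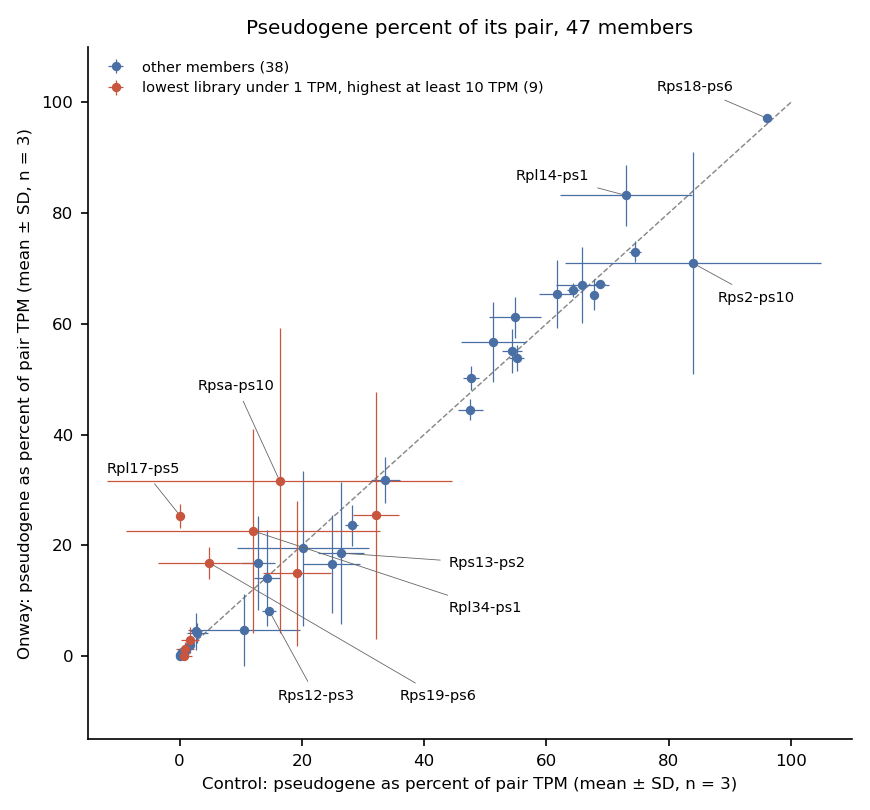
Each point is 1 of the 47 members, with the pseudogene's percent of the pair TPM in Control on the x axis and in Onway on the y axis (mean, and SD as error bars, n = 3 each); the dashed line marks equal shares. Rpl17-ps5 stands at 0.0847% against 25.3%, while the members with long error bars, such as Rpsa-ps10 and Rps2-ps10, vary as much within a group as between the groups.

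Other members were also on and off, but in the 6 libraries along other lines than the groups. Counting a gene as on and off where its highest library reached 10 TPM and its lowest was under 1 TPM, a rule chosen after seeing the data, 9 of the 37 members that reached 10 TPM qualified (24.3%). The same rule took 4.66% of tested genes that reached 10 TPM (411 of 8814) and 28.6% of the pseudogenes of non-ribosomal genes (10 of 35). Among the 9 members, Rpl17-ps5 alone was high in every library of 1 group and low in every library of the other. The further values that the authors' deposited table leaves for Rpl17-ps5, 263 TPM in Control and 13.6 TPM in Onway, went against that split. None of the 10 other pseudogenes split by group, and of the 411 genes 74 were high in Control only, 7 in Onway only and 330 in other sets of libraries.

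Rpsa-ps10 had the widest swing. Rpsa encodes a small-subunit protein also known as the laminin receptor, and the pseudogene lies on chromosome 3, 150072658 to 150073542, in no other gene. Rpsa-ps10 was at 586, 0.26 and 0.46 TPM in Control 4, 5 and 6, and at 0, 523 and 567 TPM in Onway 1, 2 and 3. It was thus high in Control 4, Onway 2 and Onway 3 and at or near 0 in the rest. Rpsa was at 610.0, 918 and 787 TPM in Control and 794, 651 and 559 TPM in Onway, and its 3 lowest libraries were those with high Rpsa-ps10. The pair sum was not level, at 1196, 918 and 788 TPM in Control and 794, 1174 and 1126 TPM in Onway. It was highest in those 3 libraries, and differed 1.52 times between the lowest and the highest library. Rpsa-ps9, at 16.1, 0.63 and 0.26 TPM in Control and 0.23, 10.8 and 13.3 TPM in Onway, and Rpsa-ps7, at 7.15, 0.07 and 0 TPM and 0, 6.96 and 6.98 TPM, were high in the same 3 libraries. As its share of the pair differed within both groups, the group means of Rpsa-ps10, 16.4% ± 28.3 and 31.6% ± 27.5 (n = 3 each), did not differ beyond their spread (exact permutation p = 0.7).

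Rpl34-ps1 and Rps2-ps6 were high in Control 4, Onway 1 and Onway 3. Rpl34 encodes a large-subunit protein, and Rpl34-ps1 (chromosome 6, 71124610 to 71124963, in no other gene) was at 502, 0 and 0.8 TPM in Control and 365, 14.1 and 414 TPM in Onway. Rpl34 was at 895, 1260.0 and 1052 TPM in Control and 734, 1038 and 830.4 TPM in Onway, again lowest where the copy was high. The pair sum ran from 1052 to 1397 TPM, 1.33 times between the lowest and the highest library. The share of Rpl34-ps1 averaged 12.01% ± 20.7 and 22.6% ± 18.4 (n = 3 each, exact permutation p = 0.8). Rps2-ps6, a minor copy, was at 22.2, 0.41 and 0.53 TPM in Control and 19.3, 0.14 and 20.2 TPM in Onway.

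Rps19-ps6 came closest to a split by group. Rps19 encodes a small-subunit protein whose loss causes Diamond-Blackfan anaemia in humans, and Rps19-ps6 lies in an intron of Tecpr2 on the same strand (chromosome 12, 110898114 to 110898551). It was at 86.7, 0.01 and 0 TPM in Control 4, 5 and 6 and at 84.9, 85.3 and 96.0 TPM in Onway 1, 2 and 3. Control 4 was thus at the level of the Onway libraries, and the groups overlap. Rps19 was at 512, 702 and 542 TPM in Control and 348, 530 and 468 TPM in Onway. In the fit of all genes Rps19-ps6 did not pass (log2 fold change 4.33 on the log2(TPM + 1) scale, SE 1.87, limma adjusted p = 0.417). Without Control 4 it did, at 6.48 (adjusted p = 2.2e-05), so that call would rest on leaving out 1 library. Ncoa4-ps and Csnk2a1-ps3, pseudogenes of genes outside the ribosome, were high in the same 4 libraries.

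The remaining on and off members each stood apart in 1 library. Rpl30-ps9, a copy of a large-subunit gene on the X chromosome, was listed at 0 in Onway 1 and at 213 to 373 TPM in the other 5 libraries. Its sum with Rpl30 was 411 TPM in Onway 1 and 671 to 893 TPM in the other 5. Rpl35a-ps2 was at 0.03 TPM in Onway 1 and at 142 to 353 TPM elsewhere. It is 1 of 5 genes with an identical transcript, which summed to 1062 TPM in Onway 1, so its single values are uncertain. Rpl38-ps2, whose parent encodes a large-subunit protein known for its role in translation of Hox mRNAs, reached 27.4 TPM in Control 6, was listed at 0 in the other 5 libraries, and has a coding sequence identical to that of Rpl38. Further values for the on and off members came from the same source. For Rpsa-ps10 the authors' deposited table leaves 0 TPM (Control) and 662 TPM (Onway), for Rpl34-ps1 401 and 435 TPM, and for Rps19-ps6 0 and 92.5 TPM. In the same order, the authors' deposited table leaves 284 and 259.9 TPM for Rpl35a-ps2, 177 and 441 TPM for Rpl30-ps9, 0.76 and 16.99 TPM for Rpsa-ps9, 0.09 and 0.53 TPM for Rps2-ps6, and 0 and 0 TPM for Rpl38-ps2.

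In the pair of Rps2-ps10 and Rps2 it was the parent that varied most between libraries. Rps2, which encodes a small-subunit protein near the mRNA entry site, was at 648, 60.6 and 54.9 TPM in Control and 429, 75.9 and 444 TPM in Onway. Its processed pseudogene Rps2-ps10, annotated as transcribed and with 5 changes and an open reading frame as long as that of the parent, was at 963, 1509 and 1361 TPM in Control and 618, 1199 and 660.5 TPM in Onway. Rps2 was high in Control 4, Onway 1 and Onway 3, the libraries in which Rps2-ps6 and Rpl34-ps1 were high, and Rps2-ps10 was lowest in those 3. The parent differed 11.8 times between its lowest and highest library and the pair sum 1.54 times. Rps2-ps10 held 84.0% ± 20.98 of the pair in Control and 70.9% ± 20.02 in Onway (n = 3 each, exact permutation p = 0.2). Its share was 59.0 to 59.8% in 3 libraries and 94.0 to 96.1% in the other 3, with libraries of both groups in each set.

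Rpl14-ps1 and Rpl14, a large-subunit gene, showed a weaker form of this. The pseudogene was at 1139, 855 and 753 TPM in Control and 798, 1078 and 1029 TPM in Onway, and the parent at 197, 464 and 340.2 TPM and 239.6, 179.8 and 154 TPM. The share of Rpl14-ps1 was 73.0% ± 10.8 and 83.2% ± 5.48 (n = 3 each, exact permutation p = 0.2), and it was highest in Control 4, Onway 2 and Onway 3, the libraries with high Rpsa-ps10. The difference of 10.2 percentage points was 21.1 with Ensembl transcripts only.

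The 5 identical Rpl35a copies varied more one by one than in sum. Rpl35a encodes a large-subunit protein that is also mutated in Diamond-Blackfan anaemia. Rpl35a-ps2, Rpl35a-ps3, Rpl35a-ps4, Rpl35a-ps6 and Gm10243 have the same 333-base transcript, so no read within it can tell them apart. Rpl35a-ps3 was at 125, 247 and 456 TPM in Control and 425, 271 and 46.6 TPM in Onway, and Rpl35a-ps6 at 423, 293 and 325 TPM in Control and 316, 118 and 134 TPM in Onway. Rpl35a-ps4 ran from 72.1 to 282 TPM, and Gm10243, which is no member by its name, from 74.7 to 459 TPM. The sum of the 5 was 1216, 1386 and 1190.5 TPM in Control and 1062, 1259 and 1080.0 TPM in Onway, within 1.30 times from lowest to highest. Rpl35a itself was at 1015, 1167 and 964 TPM in Control and 869, 1043 and 911 TPM in Onway. Rpl35a-ps3 thus differed 9.80 times between libraries, Rpl35a-ps6 3.58 times and the parent 1.34 times. Rpl27-ps3 and Gm11518, also 1 transcript, were given the same value in every library (273, 342 and 271 TPM in Control and 168, 249 and 210.2 TPM in Onway).

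**Figure D3:**
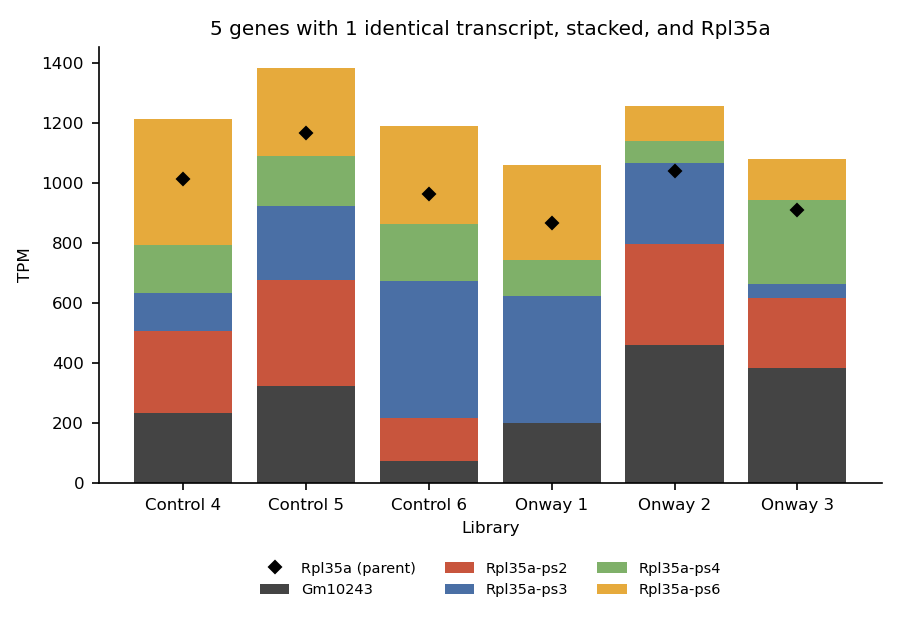
Bars stack the TPM of the 5 genes with 1 identical transcript in each library on a linear axis from 0, and diamonds give Rpl35a. The stack stays between 1062 and 1386 TPM, while Rpl35a-ps2 (red) falls to 0.03 TPM in Onway 1 and Rpl35a-ps3 (blue) ranges from 46.6 to 456 TPM.

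Some pseudogenes were given more TPM than their parent in every library. Rps18-ps6 (also annotated as a protein-coding gene, chromosome 13, 97760072 to 97760632) was at 1636, 1957 and 1669 TPM in Control and 1634, 1506 and 1616 TPM in Onway, while Rps18, a small-subunit gene, was at 69.7, 70.8 and 70.0 TPM in Control and 46.0, 40.9 and 54.7 TPM in Onway. The member was thus given more TPM than its parent throughout. Rps18-ps4, the lincRNA that overlaps it on the opposite strand, was at 0.71 to 3.31 TPM. The same held for 12 of the 47 members. Among them were Rps23-ps1 (1228 to 1868 TPM), which overlaps an exon of Gm5148 on the opposite strand and whose parent encodes a protein of the decoding centre, Rpl36a-ps2 (1164 to 1726 TPM), Rpl31-ps8 (1099 to 1442 TPM), Rpl10-ps3 (782 to 969 TPM), whose parent acts late in maturation of the large subunit, Rps7-ps3 (567 to 743 TPM) and Rpl3-ps1 (498.5 to 661 TPM). None of these 7 members passed the test (limma adjusted p from 0.599 to 0.813). Every 50-base stretch of Rps23-ps1, Rpl36a-ps2 and Rpl31-ps8 also occurs in the parent, so reads of that length cannot tell these copies apart. The same is true of 96.1% of such stretches for Rpl10-ps3, 91.4% for Rpl3-ps1, 77.9% for Rps7-ps3 and 56.6% for Rps18-ps6. How shared reads were divided between copy and parent was not tested. At the other end, 9 members held under 1% of the pair in all 6 libraries, and 12 held between 1 and 50% throughout.

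In the fit of all genes, 1 member other than Rpl17-ps5 passed. Of 14192 genes, 424 (2.99%) were lower in Onway and 33 (0.233%) higher at a limma adjusted p under 0.05. Of the other 46 members, 1 was lower and 0 were higher. At an unadjusted limma p under 0.05 there were 5 of the 46, beside 1897 of all 14192 genes. Rps12-ps3, a copy of the small-subunit gene Rps12 with a coding sequence identical to it, lies in an intron of Pdzd8 on the opposite strand (chromosome 19, 59322290 to 59322783). It was at 403, 545 and 379 TPM in Control and 188, 211 and 200.2 TPM in Onway, with no overlap. It fell by 1.13 on the log2(TPM + 1) scale (SE 0.193, limma adjusted p = 0.0211). Rps12 was at 2419, 2884 and 2383 TPM in Control and 2306, 2268 and 2167 TPM in Onway, a log2 difference of -0.18 that did not pass (SE 0.163, adjusted p = 0.702). The pair thus did not switch, since neither copy was higher in Onway. Every 50-base stretch of the Rps12-ps3 transcript also occurs in Rps12, so reads of that length cannot tell the copies apart. Rps12l1, a further gene that holds 100% of the 31-base words of the Rps12 coding sequence, was at 80.0, 159 and 122 TPM in Control and 74.7, 141 and 106 TPM in Onway, and its groups overlap. The call ended without Control 5, Control 6, Onway 1, Onway 2 or Onway 3 (limma adjusted p from 0.0552 to 0.0788), at log2 fold changes from -1.23 to -0.97. For Rps12-ps3 the authors' deposited table leaves a further value of 383 TPM (Control) and 238 TPM (Onway).

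Rpl7a-ps11 came nearest to the threshold among the other members. It differed by -1.09 (SE 0.248, limma adjusted p = 0.0704), at 6.92, 7.78 and 7.73 TPM in Control and 2.61, 2.1 and 4.6 TPM in Onway. Rps13-ps2, a copy of a small-subunit gene, was at 133, 137 and 107 TPM in Control and 41.2, 35.9 and 117 TPM in Onway (log2 fold change -1.15, adjusted p = 0.325). Onway 3 was at the Control level for Rps13-ps2, and without it both members passed (adjusted p = 0.0246 for Rpl7a-ps11 and 0.011 for Rps13-ps2). Rpl35a-ps6 passed without Onway 1 (adjusted p = 0.0292), but its reads cannot be told from those of 4 identical genes. Rpl27-ps3 differed by -0.51 (adjusted p = 0.347).

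When each pseudogene was added to its parent before the fit, no parent family passed. Of 14094 genes so tested, 460 (3.26%) passed the limma threshold, and 0 of 32 parents without Rpl17 did, with 1 at an unadjusted p under 0.05. The median log2 fold change of the 32 was -0.19, beside 0.03 over all genes, and 30 of 32 were negative. The lowest adjusted p was 0.313, for Rps2. Only genes named for the parent with -ps were added. Close copies with other names, such as Gm12191 for Rpl30 and Gm10163 for Rpl21 (means of 409 and 363 TPM), stayed apart. They are not in the pair shares either. For comparison, 0 of 80 tested cytosolic ribosomal protein genes passed in the fit of single genes (limma, 2 at an unadjusted p under 0.05), with a median of -0.16 and 77 of 80 negative. Rps18 had the smallest p among them (log2 fold change -0.57, SE 0.165, adjusted p = 0.161). Of all 14192 genes in the fit of single genes, 6579 were negative and 1897 had an unadjusted limma p under 0.05. Of 19 other translation genes with related control of their mRNAs, 0 passed (0 at an unadjusted p under 0.05; median -0.02), and Eef1g, an elongation factor subunit, was at -0.41 (adjusted p = 0.419). Of 20 ribosome assembly genes, 0 passed (2 at an unadjusted p under 0.05; median -0.07), with Nhp2, a part of box H/ACA particles, at -0.49 (adjusted p = 0.266). The 54 pseudogenes of other genes had 0 passing (4 at an unadjusted p under 0.05) and a median of 0.06.

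The members with signal were close copies. Of the 47, 46 were found in GENCODE M21, where 37 are annotated as processed pseudogenes, 3 as transcribed processed pseudogenes, 5 as protein-coding and 1 (Rps18-ps4) as a lincRNA. Among 45 that could be aligned to the coding sequence of the parent, the median identity was 99.6% and the lowest 92.7%. There were 13 with no difference over the aligned part, 24 with 1 to 7 mismatches and no gap, and 8 with gaps or more mismatches. An open reading frame as long as that of the parent was kept by 28, and 42 had 1 exon. By position, 18 lay in an intron of another gene, 24 overlapped no gene, and 1 was on the chromosome of its parent. The 9 on and off members included 1 with no difference to its parent.

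The share of the pair varied over a wide range among both identical and differing members. Among members averaging 10 TPM or more, the share moved by a median of 7.84 percentage points between the lowest and the highest library for the 12 with no difference, and by 18.6 points for the 21 that differ. Without Rpl17-ps5 and the 4 Rpl35a copies, whose single values cannot be told apart, the median of the remaining 16 was 12.6 points, a choice made after seeing the data. The ranges overlap, from 3.71 to 24.0 points and from 0.204 to 50.3 points. Rps23-ps1 and Rpl36a-ps2, both without a difference, moved by 3.71 and 3.95 points, while Rps13-ps2, also without one, moved by 24.0 points. Rpl36-ps2, which differs and is far less abundant than its parent, moved by 0.204 points. This is a description over members that share libraries and, for several, a parent.

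**Figure D4:**
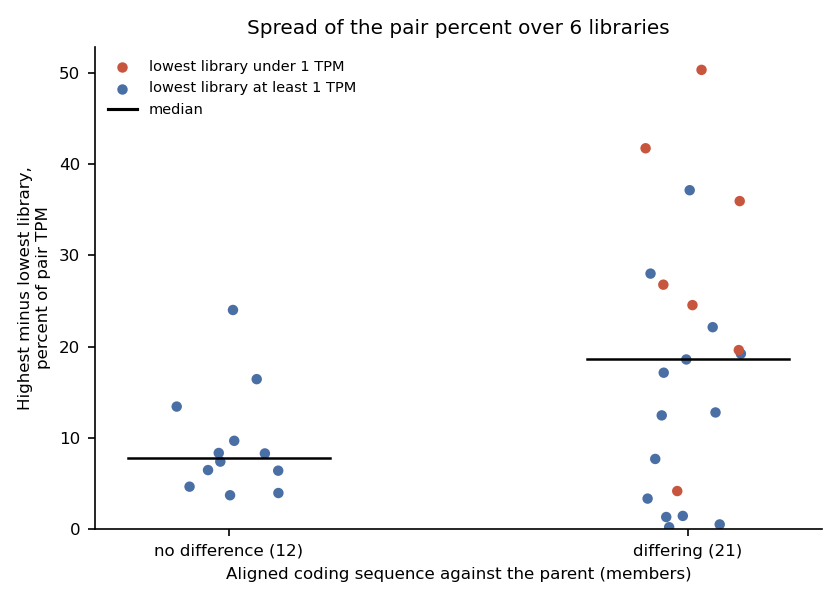
Each point is a member with a mean of at least 10 TPM, and the y axis gives its highest minus its lowest percent of the pair TPM over the 6 libraries, for 12 members with no difference to the parent and 21 that differ (bars are medians, 7.84 and 18.6 points; red points have a library under 1 TPM). All members above 25 points differ from their parent, and both sets include members under 5 points.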

How the data were processed

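Per the labels' protocols, libraries were prepared from column-purified RNA with SMARTer mRNA reagents. The submitters' processing notes name GRCm38 and mm10. Aligner, quantifier and strandedness: not given in the sources used here. TPM of 158850 transcripts, as computed by the authors, was the deposited unit. Onway columns carry another prefix than the titles and were matched by number. TPM was summed per gene, including 15 newly assembled transcripts of members. Genes averaging 1 TPM or more were tested on log2(TPM + 1) with limma 3.58.1 (R 4.3.3; trend, robust, 2-sided, Benjamini-Hochberg over all tested genes, threshold 0.05), which was also tested on simulated data. There it recovered 41 of 100 genes changed by 1 on the log2 scale and 92 of 100 changed by 3. A change near 1 could thus often be missed. The log2 scale understates changes of low genes. Single shares had an exact permutation test over 20 assignments. Coding sequences were aligned with Biopython 1.88. The members and lists were chosen with earlier results of these data known. Named were Rpl17-ps5 and its family, members past the threshold, the 8 most abundant, the 10 with the largest difference in share, those nearest 1 TPM, and up to 3 genes per list with the smallest p. Rpl7a-ps11, Rpl27-ps3, Rpl3-ps1, Rpl35a-ps2, Rpl35a-ps3, Rpl35a-ps4, Rpl36-ps2, Rpl38-ps2, Rpsa-ps7, Rpsa-ps9, Rps2-ps6, Rps18-ps3, Rps18-ps4, Rps18-ps5, Rps12-ps9 of the low members, Rps12l1 and the Gm genes were named after their values were seen. No library was left out, no batch is named in the labels, and Rplp2-ps1 was not found in the annotation. Alternatives were other pseudocounts, filters and scalings, Ensembl transcripts only, and leaving out libraries. The names of the pairs added without Control 5 are not reported here.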

Additional observations from a re-analysis of the deposited data

Results flagged for a closer look

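The value that the group means of the authors' deposited table leave for a further Control library was 262.65 TPM for Rpl17-ps5. The further library enters no test, and this value exceeds the 0 to 2.06 TPM of the 3 Control libraries.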

How the results depend on the processing

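No paired analysis was possible because the groups share no replicate numbers. Limiting the pairs to a pseudogene mean of at least 1 TPM, or summing the pseudogenes of a parent, gave 6 pairs or families whose share separated the groups, against 11 of 321. Leaving out 1 library in turn gave 17 to 24 such pairs and 2 to 6 switching pairs against 1, with Rpl17-ps5 in each. A group of 2 libraries separates more easily from 3, and the part of this in the counts was not tested. Among pairs with a pseudogene mean of at least 1 TPM, 4 switched without Control 4, and 1 without any other single library. Without Control 4 the other 5 were Rpl34-ps1, Rps2-ps10, Rps19-ps6, Rpl7a-ps4 and Rps2-ps7, and without Control 6 Rps6-ps3 was added. Without Control 5 there were 3 in all. The pairs added were Rps12-ps9, Rps15a-ps4 and Rpl26-ps1 without Onway 1, Rps27a-ps2 and Rps15a-ps6 without Onway 2, and Rps12-ps26, Rpl17-ps10 and Rpl17-ps7 without Onway 3. Without both Control 4 and Onway 3 there were 35 and 10. Members other than Rpl17-ps5 past the limma threshold numbered 0 to 2 (none without Control 5, Control 6 or Onway 2; Rps12-ps3 and Rps19-ps6 without Control 4; Rpl35a-ps6 in place of Rps12-ps3 without Onway 1; Rpl7a-ps11 and Rps13-ps2 without Onway 3), and 3 without both. Leaving out 1 library in turn gave 266 (without Onway 2) to 516 (without Control 5) called genes against 457, and 266 to 525 against 460 in the merged table. Rps12-ps3 passed under each of the other pseudocounts, filters, scalings and limma settings tried. With Ensembl transcripts only, the Rpl17-ps5 share differed by 12.7 instead of 25.2 percentage points and that of Rpl14-ps1 by 21.1 instead of 10.2, and the switch count stayed 1. Summing all pseudogenes leaves the overall share as it is by construction. The on and off rule, the search for copies by shared words and the further values were chosen after seeing the data. TPM keeps no depth, so sampling error of low members is unknown.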
